A study of Mus musculus with 8 samples.

Results

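In liver ATAC-seq of young and old mice, 357 of 82508 sites (0.433%) had a peak in all 4 Young libraries and in no Old library. They are called young-only sites. A site is a stretch covered by 1 peak or by a chain of overlapping or touching peaks from any of the 8 lists. The young-only sites were chosen by whether each list held a peak there, so their presence, fold and width are descriptions with no test. Sites with a peak in all 4 lists of at least 1 age numbered 46898, and the young-only sites were 0.761% of them. No Old list held a peak at these sites. A site without a listed peak can still carry reads below the calling threshold, so the lists do not show that these sites were closed in old liver.

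The study examined how chromatin accessibility in the liver differs with age. All libraries came from whole liver of male C57BL/6 mice on chow. The Young mice were 6 months old and the Old mice 23 months old per the labels, with 2 mice per age and 2 technical libraries per mouse. Young replicates 1 and 2 came from mouse 1 and replicates 3 and 4 from mouse 2, and Old replicates 1 and 2 came from mouse 3 and replicates 3 and 4 from mouse 4. The labels name no substrain, while the methods of the study assign the young and the aged mice to different C57BL/6 substrains and give other ages. Age, substrain and differences between single animals cannot be told apart in these 4 mice. Liver is a mixture of hepatocytes and other cells, so fewer cells of a type and less opening per cell cannot be told apart either.

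ATAC-seq uses a transposase that inserts sequencing adapters where DNA is not wrapped tightly by nucleosomes. Peaks of inserted ends mark accessible DNA, mainly promoters, which lie at the starts of genes, and enhancers, which lie away from them and are more often used by particular cell types or states. Genes, distances to start sites and sequences of the young-only sites were not analysed here, because the annotation at hand is of another genome build (GRCm38) than the lists (mm9).

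The lists held 56423 to 61423 peaks, and every Young list except replicate 4 was longer than every Old list. The fold of a peak is its enrichment over the local background as given by the peak caller, and the list medians ran from 5.59 to 5.86. A percentile below is the rank of a fold within its own list. Of all sites, 37504 had a peak in all 8 lists, 157 were the reverse of the young-only sites (all 4 Old lists and no Young list), and 4058 were held by one of the other 69 sets of exactly 4 lists, old-only sites included.

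**Figure D1:**
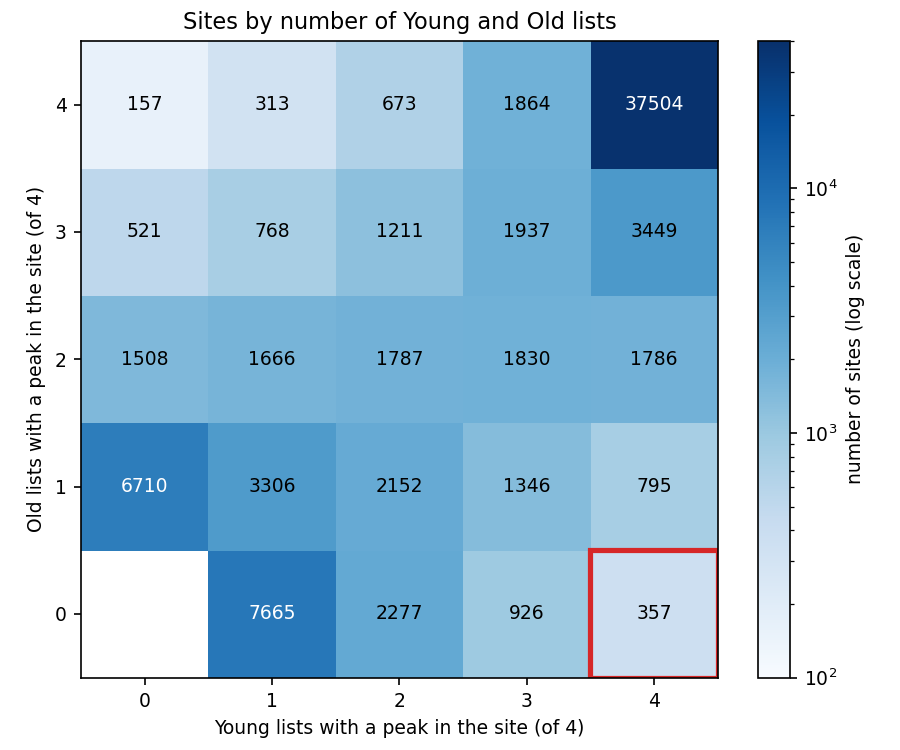
Number of sites by how many of the 4 Young lists (x axis) and of the 4 Old lists (y axis) had a peak there, coloured on a log scale. The young-only sites (357, red frame) are fewer than the neighbouring cells, which hold 795 sites with 1 Old peak and 926 sites that lack 1 Young peak.

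The young-only set held more sites than each other set of 4 lists. Most Young lists were longer than the Old lists, and with lists of equal size the young-only count was 283. The other sets were not recounted at that size. Sets made of 3 Young lists and 1 Old list held 54 to 128 sites each (median 76, 16 sets), sets of 2 and 2 held 25 to 121 (median 45.5, 36 sets), and sets of 1 Young and 3 Old lists held 30 to 75 (median 45.5, 16 sets). Among the sets made of both libraries of a pair of mice, the Young pair held 357, the Old pair 157, mice 1 and 3 121, mice 1 and 4 62, mice 2 and 4 60, and mice 2 and 3 57. Of the 4415 sites held by exactly 4 lists, 8.09% were young-only (95% Wilson interval 7.32% to 8.93%, counting error only). The interval takes the sites as independent, though all come from the same 4 mice, so it does not measure spread between mice.

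Sites just inside and just outside the rule were alike in fold. The median of the mean Young fold was 4.73 at the young-only sites (quartiles 4.13 and 5.26). It was 4.82 at the 795 sites with 1 Old peak besides the 4 Young peaks, and the Old peak there had a median fold of 4.30. It was 4.44 at the 926 sites with 3 Young peaks and no Old peak. The quartiles of all 3 groups overlapped. With the 4 Young peaks and 2 or 3 Old peaks, it was 5.01 and 5.17.

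The single missing or extra library was not evenly spread. Of the 926 sites that lacked 1 Young peak, 295 lacked it in replicate 1, 197 in replicate 2, 152 in replicate 3 and 282 in replicate 4, and replicates 1 and 4 had the shorter Young lists. Of the 795 sites with 1 Old peak, 245 had it in Old replicate 1, 194 in replicate 2, 191 in replicate 3 and 165 in replicate 4, the longest Old list first and the shortest last. The part of list length in these counts was not tested.

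Young-only sites were weak and narrow peaks of their lists, as were the sites of the other sets of 4 lists. The median of the lowest percentile was 14.5 at young-only sites and 13.9 at the other sets of 4 lists, against 49.6 at sites of all 8 lists, and the median of the mean fold was 4.73, 4.52 and 7.09. At the young-only sites the median fold was 4.40, 4.73, 4.72 and 4.55 in Young replicates 1 to 4, a mean of 4.60 ± 0.156 (SD, 4 libraries of 2 mice). The 2 mice lay at 4.56 and 4.63, closer together than the libraries of mouse 1 were to each other. The lowest fold was 2.25, in replicate 2, and the highest 13.7, in replicate 1. The median percentile was 25.8, 31.1, 30.7 and 28.3, and 50, 67, 64 and 54 of the 357 sites reached the median of their list. At 151 sites (42.3%) at least 1 Young library reached it, and at 6 sites (1.68%) all 4 did. The lowest percentile was at least 50 at 12 of the 4058 sites of the other sets of 4 lists (0.296%), 9 of them old-only. These 9 are 5.73% of the 157 old-only sites, a higher share than at the young-only sites. The old-only median of the mean fold was 4.83, also above the young-only one, and the median lowest percentile was 14.2. Of the young-only sites, 80 (22.4%) had a percentile of at least 25 in all 4 libraries, while 104 (29.1%) had a library below the percentile of 10.

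The median peak width at these sites was 269, 278, 292 and 274 bp in Young replicates 1 to 4, against list medians of 422 to 432 bp. The merged sites were 410 bp wide at the median (240 to 816 bp). Old-only sites were 442 bp wide, sites of the other sets of 4 lists 390 bp and sites of all 8 lists 747 bp. The peaks of the 4 libraries did not fill the site together: a median of 182 bp, or 43.6% of the site, was covered by all 4, against 154 bp and 39.3% at sites of the other sets of 4. In 11 young-only sites no base was covered by all 4 libraries, so the 4 peaks there overlapped only in a chain.

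In each list many folds were whole multiples of a step of 0.430. If a fold is written as MACS2 writes it, the pile-up plus 1 over the background plus 1, such a peak was scored against the genome-wide background and its pile-up can be read. Of the 1437 peaks in young-only sites (8 sites held more than 1 peak of a library, of which the highest fold is given here), 738 (51.4%) were of this kind, here called whole multiples, within a tolerance of 0.0001, against 50.1% at the other sets of 4 lists and 38581 of 321579 peaks at sites of all 8 lists. Their median pile-up was 11 fragments (quartiles 9 and 12, range 7 to 31), against 10 at the other sets of 4 lists and 14 at sites of all 8 lists. An exact Poisson interval for a count of 11 runs from 5.49 to 19.7. The interval covers counting error in 1 library alone and says nothing of a pattern over 8 libraries.

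The leading sites were ranked by their lowest percentile over the Young libraries. At chr14:79809036-79809620, the leading site, the peaks were 537, 315, 364 and 416 bp wide and 255 bp were common to all 4 libraries. The nearest site of all 8 lists lay 10892 bp away, and no site of some but not all lists lay within 50 kb. At chr1:24619432-24620141, the site with the highest fold, the width followed the fold, at 592 and 707 bp in the libraries of mouse 1 and 352 and 351 bp in those of mouse 2. Its only neighbour within 50 kb was a site with 1 Old peak, and the nearest site of all 8 lists was 64748 bp away. At chr14:11970941-11971431 the fold was 7.56, 8.85, 8.40 and 7.63, the libraries of both mice overlapped, and the nearest Old peak was 4872 bp away.

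The mice differed in order at other leading sites. At chr11:64950718-64951130 the fold was 6.44 and 6.45 in mouse 1 and 9.45 and 8.16 in mouse 2, so mouse 2 was above mouse 1 in both libraries. At chr9:77536787-77537289 it was 8.59 and 6.64 in mouse 1 and 9.50 and 7.73 in mouse 2, and the libraries of the 2 mice overlapped. At chr8:82206860-82207268 it was 6.98, 6.16, 6.54 and 7.31, and an Old peak lay 1678 bp away.

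At chr3:55694043-55694830, the widest of the 10 leading sites at 787 bp, the fold was 8.16 and 5.81 in mouse 1 and 7.73 and 5.83 in mouse 2, so each mouse had 1 high and 1 low library. No other site of any kind lay within 50 kb, and the nearest Old peak was 109396 bp away. The remaining leading sites were chr12:105515459-105515886, chr14:78909651-78910060 and chr2:178623412-178623889. Their folds ran from 5.59 to 7.73, and in each of them replicate 4 had the lowest value, 5.59.

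**Figure D2:**
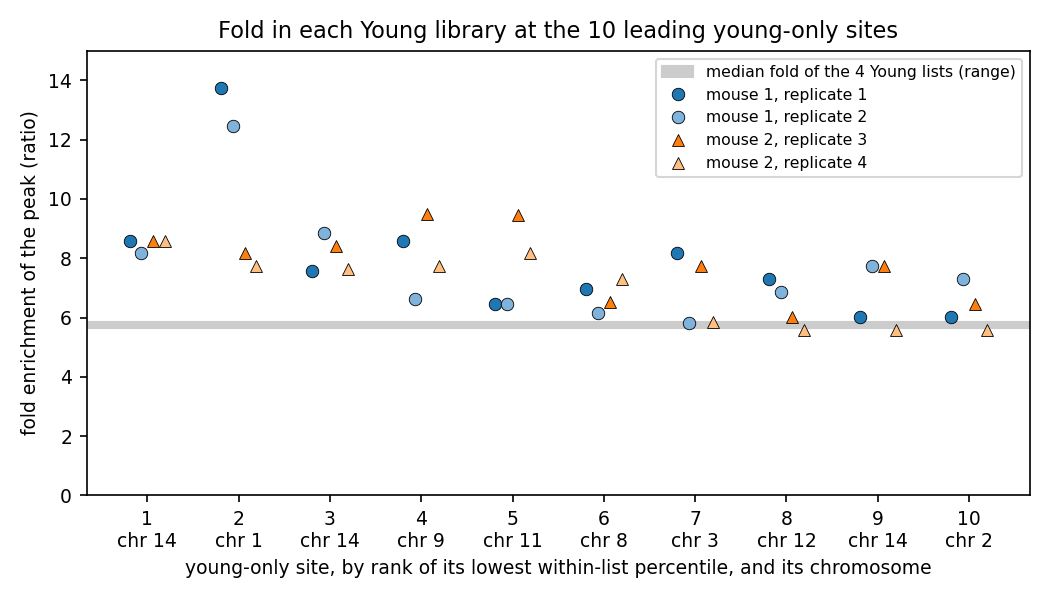
Fold of the peak in each Young library (y axis, ratio) at the 10 young-only sites with the highest lowest percentile in a list (x axis, rank and chromosome). Circles are mouse 1 and triangles mouse 2, and the grey band spans the median folds of the 4 Young lists. The site on chromosome 1 reached 13.7 and 12.5 in mouse 1, and at ranks 8 to 10 replicate 4 fell to 5.59.

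Width and strength did not always go together. By mean peak width the leading site was chr16:28990063-28990811, with peaks of 710, 618, 518 and 565 bp and folds of 6.06, 6.05, 4.92 and 6.20. An Old peak lay 523 bp from it. At chr12:46306334-46307054 the peaks were 651, 542, 529 and 668 bp wide with folds of 6.44, 8.16, 6.87 and 4.73, so the widest peak had the lowest fold. At chr19:55555132-55555895 and chr4:44058955-44059596 the folds ran from 4.30 to 5.60 and from 4.02 to 6.28.

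Across the 357 sites the fold was repeated only in part from library to library. Pearson's r of log2 fold was 0.622 and 0.606 between libraries of the same mouse and 0.547 to 0.617 over the 4 pairs of different mice, a description across sites that share libraries and were selected on their peaks. At the sites of all 8 lists, which had higher folds, it was 0.870 to 0.888. Neither r nor the measures below are given here for the other sets of 4 lists. Whether the lower agreement is particular to young-only sites was therefore not examined. The median absolute log2 difference between 2 Young libraries was 0.202 to 0.227 at young-only sites. At the sites of all 8 lists it was 0.155 to 0.171, so the classes lay closer in this than in r. The highest fold was 1.36 times the lowest at the median young-only site and at least 2 times the lowest at 10 sites (2.80%), against 1.27 times and 0.947% at sites of all 8 lists.

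Both libraries of one mouse lay above both of the other at 128 young-only sites (35.9%), 56 with mouse 1 above and 72 with mouse 2 above. At sites of all 8 lists the share was 37.6%, with mouse 1 above at 8846 sites (23.6%) and mouse 2 above at 5238 (14.0%). The more frequent order was thus the opposite of that at the young-only sites (15.7% and 20.2%), and this difference was not tested. These orders used folds as listed, and the list medians were 5.78 and 5.86 in mouse 1 and 5.76 and 5.65 in mouse 2. By percentile the mice were apart at 37.5% of young-only sites and 37.6% of sites of all 8 lists. Mice can be apart in this way by chance, so these shares show no difference between them. Among sites with the mice apart, the widest gap in fold was at chr12:73583172-73583559, with 7.73 and 7.73 in mouse 1 and 4.37 and 3.87 in mouse 2. At chr4:103077984-103078269 mouse 1 was also higher, at 5.73 and 7.89 against 3.87 and 3.87. Mouse 2 was higher at chr2:163061601-163062168, at 8.33 and 7.30 against 4.30 and 4.73, and at chr6:70803377-70803775, at 7.32 and 4.70 against 3.42 and 3.39.

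Young-only sites lay on chromosomes 1 to 19 and X. Per 1000 sites of all 8 lists on the same chromosome, chromosome 18 had 15.2 young-only sites, chromosome 14 had 14.4 and chromosome 19 had 12.6, while chromosome 13 had 6.94 and X 4.39. These rates rest on 17, 20, 15, 12 and 3 sites. The share on X was 0.840%, against 0.637% (1 site) for old-only sites, 1.77% for the other sets of 4 lists and 1.82% for sites of all 8 lists. Chromosome 14 held 5.60% of young-only and 6.37% of old-only sites, against 3.71% of sites of all 8 lists. For chromosome 18 these shares were 4.76%, 4.46% and 2.99%. A low share on X and high shares on chromosomes 14 and 18 were thus not particular to young-only sites.

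The distance to the nearest site of all 8 lists was 9013 bp at the median, against 10672.5 bp for the other sets of 4 lists. Of the young-only sites, 41 (11.5%) lay within 1 kb of such a site, 192 (53.8%) within 10 kb and 35 (9.80%) more than 100 kb away. The shares for the other sets of 4 lists were 11.4%, 48.4% and 7.64%. For old-only sites they were 3.82%, 44.6% and 10.8%. A peak of an Old list lay within 1 kb of 63 young-only sites (17.6%) and within 200 bp of 15 (4.20%). The matching share at the other sets of 4 lists, for a peak of a list that did not hold the site, was 21.8% within 1 kb.

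Fold and distance went together. The median of the mean fold was 3.67 at the 41 sites within 1 kb of a site of all 8 lists, 4.59 at the 151 sites from 1 to 10 kb, 5.07 at the 130 sites from 10 to 100 kb and 5.16 at the 35 sites farther away. At the other sets of 4 lists the same medians were 3.74, 4.40, 4.70 and 4.73. The order from near to far was the same in both classes, and the young-only medians were the higher ones in each range but the nearest, within 1 kb. The share of folds at whole multiples of the step was 1.83%, 33.4%, 75.7% and 96.7% from the nearest to the farthest young-only sites. At the other sets of 4 lists it was 4.10%, 29.8%, 74.2% and 78.7%, so it rose with distance there too. If the folds are those of MACS2, peaks off these multiples were scored against a raised local background, so folds at different distances are not on 1 scale of reads.

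**Figure D3:**
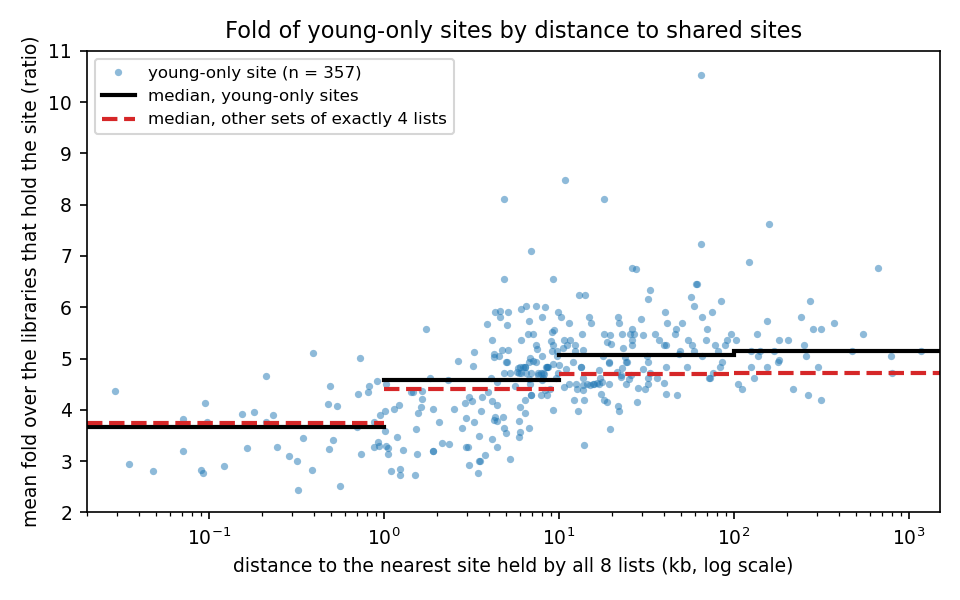
Mean fold over the 4 Young libraries (y axis, ratio) of each young-only site against its distance to the nearest site of all 8 lists (x axis, kb, log scale). Black lines are medians of the young-only sites within 1 kb, from 1 to 10 kb, from 10 to 100 kb and beyond (3.67, 4.59, 5.07 and 5.16), and red dashed lines those of the other sets of exactly 4 lists (3.74, 4.40, 4.70 and 4.73).

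The closest neighbours of shared sites were chr5:139252927-139253356, 29 bp from a site of all 8 lists, chr1:186705112-186705624, 35 bp away, and chr17:30748357-30748677, 48 bp away. Their folds were 3.95 to 4.65, 2.75 to 3.05 and 2.40 to 3.42. The farthest young-only site lay on chromosome 18, 1177349 bp from a site of all 8 lists, with folds of 5.16, 5.16, 6.01 and 4.30, and an Old peak lay 41390 bp from it. Another on chromosome 18 was 801004 bp away and had no Old peak nearer than that. At chr10:55032687-55033017, 793316 bp away, the folds were 5.16, 4.73, 4.73 and 5.59.

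Few young-only sites lay near another young-only site. Within 100 kb of another one lay 29 of 357 (8.12%), in 13 pairs and 1 run of 3 sites. The share was 6.37% for the 157 old-only sites (10 sites). Such a share depends on how many sites a class holds. Neither is comparable with the 45.7% of the 4058 sites of other sets of 4 lists, which are far more numerous. The run of 3, chr16:30408324-30423228, lay among 6 sites of all 8 lists within 20 kb, and its folds were 2.88 to 6.02. The pair on chromosome 6, from 77699121 to 77708521, had no other site within 20 kb, and the nearest peak of any Old list was 273239 bp away. Its folds varied widely, from 3.44 to 9.02 at the first site and from 4.30 to 7.30 at the second.

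The pair on chromosome 10 from 23966533 to 23975233 lay in a stretch with Young peaks alone. All 7 sites within 20 kb of it, the pair included, had Young peaks, in 19 site-by-list combinations, and none of them had an Old peak. The folds of the pair were 5.58, 6.02, 9.20 and 8.16 at the first site and 5.58, 6.45, 4.70 and 8.11 at the second, and the other 5 sites were held by 1 to 3 Young lists. The nearest Old peak was 43150 bp from the second site. Around the pair on chromosome 8, from 109127138 to 109129952, 9 sites had Young peaks in 29 combinations and Old peaks in 11, 8 of them at the 2 sites held by all 8 lists. The pair on chromosome 10 from 58725720 to 58731869 had 3 sites between its members with a peak of 1 Old list each and no Young peak. These were single calls of Old replicates 1, 4 and 2. Sites with a peak in 1 Old list and no Young list numbered 6710 over the genome. Whether these 3 so close together differ between the ages was not tested.

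**Figure D4:**
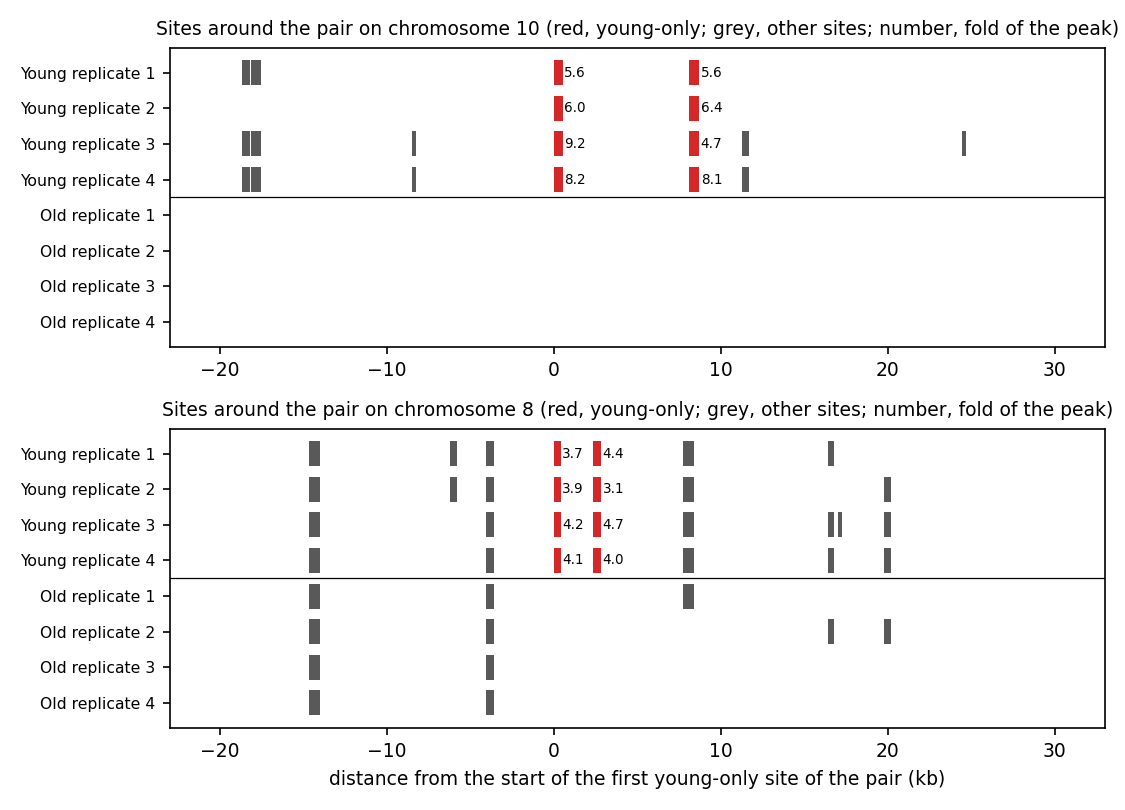
Peaks of each library (y axis) within 20 kb of a pair of young-only sites, against the distance from the start of the first (x axis, kb, sites drawn to scale). Young-only sites are red with the fold of the peak beside them and other sites are grey. Around the pair on chromosome 10 no Old library had a peak, while around the pair on chromosome 8 the 2 sites held by all 8 lists and 3 others had Old peaks.

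The surroundings of young-only sites were described in both ages by 2 measures taken at other sites. Both come from the same lists of the same 4 mice that chose the young-only sites. They are therefore not independent of that choice, and whether nearby peaks carried the choice with them was not tested. The first was the fold of the nearest site of all 8 lists (348 sites). Its mean percentile, relative to all sites of all 8 lists in the same library, was 3.52, 2.92, 3.45 and 2.43 in Young replicates 1 to 4 and 3.12, 3.18, 3.52 and 2.06 in Old replicates 1 to 4. The ages overlapped. The mean was 3.08 ± 0.196 in Young and 2.97 ± 0.255 in Old (SD, n = 2 mice each), a difference of 0.112 percentile points (exact two-sided permutation p = 0.667, adjusted p = 0.889 by Benjamini-Hochberg over 4 comparisons). The sign of this difference changed when single libraries were left out. At 12 of the 348 sites (3.45%) all 4 Young percentiles lay above all 4 Old ones, close to the 3.19% of all 37504 sites of this kind, and at 7 (2.01%) they lay below, against 2.43%.

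The second measure, added after values had been seen, was the share of a library's peaks at sites of some but not all lists that lay within 50 kb of a young-only site, the young-only sites themselves left out. This share was 2.79%, 2.92%, 2.90% and 2.82% in Young replicates 1 to 4 and 2.55%, 2.64%, 2.40% and 2.61% in Old replicates 1 to 4. Each Young library was above each Old library. The mean was 2.85% ± 0.00247 in Young and 2.55% ± 0.0638 in Old (SD, n = 2 mice each), a difference of 0.305 percentage points. The small Young SD rests on 2 mouse means that nearly agree, while the 2 libraries of mouse 1 lay at 2.79% and 2.92%. It therefore says little of the spread between mice. The exact two-sided permutation p was 0.3333 (adjusted p = 0.667), the smallest that 4 mice allow, so no difference between these ages can pass a threshold of 0.05. Counted over single libraries the exact permutation p was 0.0286, also the smallest possible, but a mouse's 2 technical libraries are not independent samples.

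In the flanks of 50 kb lay 1226 such sites. More Young than Old lists held 695 of them (56.7%), against a background of 49.8% of all 44647 sites of some but not all lists. Fewer Young than Old lists held 360 (29.4%), against 34.5%. The flanks held 2222 Young and 1712 Old peaks, a ratio of 1.30, against 1.16 at all sites of this kind. Within 20 kb the ratio was 1.38 and within 100 kb 1.27. The difference in share was 0.207 points within 20 kb and 0.470 points within 100 kb, and Young was above Old in both.

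Near old-only sites the share was higher in Old. It was 1.08% to 1.20% in the Young libraries and 1.29% to 1.43% in the Old libraries, a difference of -0.216 points (1.12% ± 0.0494 against 1.34% ± 0.0599, SD, n = 2 mice each, exact permutation p = 0.3333, adjusted p = 0.667). Near sites held by the other mixed sets of exactly 4 lists it was 28.0% ± 0.0145 in Young and 28.1% ± 0.683 in Old (exact permutation p = 1), and the libraries of the 2 ages overlapped. Whether the classes of sites differ from each other in this was not tested.

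The excess of Young peaks was spread over many young-only sites. Of the 313 with a site of some lists within 50 kb, 213 had more Young than Old peaks there, 60 had fewer and 40 had equal numbers, and 44 had no such site. More Young peaks were thus found around 68.1% of the 313, against 56.5% of the 3485 sites of the other mixed sets of 4 lists with such a neighbour and 38.5% of the 135 old-only sites, and these shares were not tested against each other. The excess reached 17 peaks at both members of the pair on chromosome 8, with 26 Young and 9 Old peaks. With the sites within 100 kb of another young-only site left out the difference in share was 0.250 points, and with flanking sites within 1 kb left out it was 0.298 points. Around the same 357 sites, counting flanking peaks with a fold of at least 5.69 (the median of all peaks) alone, the share was 2.67%, 2.69%, 2.60% and 2.55% in Young replicates 1 to 4 and 2.32%, 2.05%, 1.71% and 2.13% in Old replicates 1 to 4, a difference of 0.576 points. With flanking peaks below that fold alone the difference was 0.276 points. Each Young library was above each Old library in both (exact permutation p = 0.3333 for both). Where the minimum fold was set before sites were chosen, 221 sites were young-only, 7 of them among the 357, and around these sites the difference was -0.0268 points.

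**Figure D5:**
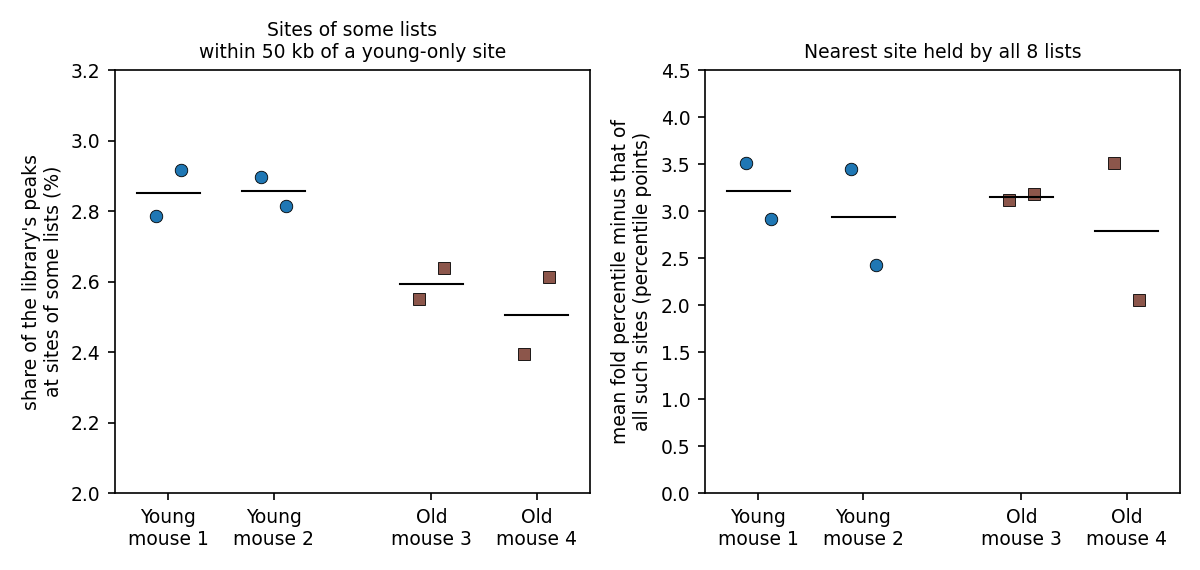
Left, share of each library's peaks at sites of some but not all lists that lay within 50 kb of a young-only site (y axis, percent, starting at 2). Right, mean fold percentile of the nearest sites of all 8 lists minus that of all such sites (y axis, percentile points). Points are libraries and lines are means of a mouse. On the left each Young library (2.79% to 2.92%) lies above each Old library (2.40% to 2.64%), and on the right the ages overlap.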

How the data were processed

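ATAC-seq libraries of 8 liver samples (2 mice per age, 2 technical libraries per mouse) were grouped by labelled age. The authors called peaks in each library and deposited, per peak, a chromosome, start, end and fold enrichment, a ratio, with no read counts, so precision per site is unknown beyond the fold steps. The submitters' processing notes name FastQC 0.10.0, Trim Galore 0.3.0, Bowtie2, Picard 1.98, MACS2 and build mm9, while the methods of the study name mm10 and HOMER. No peak ran past an mm9 chromosome end (lengths from GenomeInfoDb 1.38.1) and 3589 of 469408 ran past mm10 ends, so coordinates are those of the lists on mm9, and whether starts count from 0 or 1 is not stated. The calling threshold is not given in the sources used here, and read totals were not used here. Genes, start-site distances and sequences were not analysed here, since no conversion between builds was made.

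Touching peaks were merged into sites. The members, lists and measures were chosen with earlier results of these data known. Sites named were the 10 with the highest lowest percentile, the 5 widest by mean peak width, all runs of 3 or more within gaps of 100 kb and pairs within 10 kb, the 5 with the largest difference between the Young mice, and the 3 nearest to and farthest from a site of all 8 lists. The test of read counts in the methods of the study was not used, as lists hold no counts. The tests of age were exact two-sided permutation tests of mouse means, with 6 arrangements. Alternatives were other merging distances, lists of equal size, a minimum fold, autosomes alone, at least 50% coverage of a site, other windows, libraries as replicates, mice paired by number and leaving out each library. The functions were tested on simulated data. Figures were drawn with matplotlib 3.10.9, and the rest was computed with pandas 2.3.3, numpy 2.4.6 and scipy 1.17.1 in Python 3.11.15.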

Additional observations from a re-analysis of the deposited data

Results flagged for a closer look

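At 2 of 42 groups of 4 values tested with Dixon's test (4.76%), 1 library stood apart from the other 3, and chance flags about 1 in 20 groups. At the site on chromosome 14 from 79809036 to 79809620 the fold was 8.16 in Young replicate 2 and 8.59 in the other 3 libraries, a gap of about 1 step of the fold scale. At the site on chromosome 16 from 28990063 to 28990811 the fold was 4.92 in Young replicate 3 against 6.05 to 6.20 in the others.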

How the results depend on the processing

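Of 106 alternatives, 73 were counted as unchanged, by a different rule for each kind of result. The count had to stay within a factor of 1.5 of 357, and a share within its 95% Wilson interval. The median site width had to stay within the SD of the median peak widths of the Young libraries (9.88 bp). The median lowest percentile had to stay within the SD of the Young library median percentiles (2.44). A difference between ages had to keep its sign and side of the threshold. The causes of the other changes were not tested unless stated. The count of young-only sites was 221 with a fold of at least 5.69, and 511 to 651 without 1 library, where the rule asks for fewer lists. Of these 221 sites 7 overlapped the 357, and the other 214 held a weaker Old peak in the full lists, so values at the minimum fold describe other sites. The share within 100 kb of another young-only site was 5.65% in lists of equal size, 4.52% with the minimum fold, 3.08% with a window of 10 kb, 35.9% with 1 Mb and 8.64% to 14.7% without 1 library. The median width was 531 bp with the minimum fold and 376 to 415 bp without 1 library. The median lowest percentile was 8.40 with the minimum fold and 14.5 to 15.6 without 1 library. The share with an Old peak within 1 kb was 11.3% in lists of equal size, 5.43% with the minimum fold, 4.20% at 200 bp, 68.1% at 10 kb and 17.3% to 20.9% without 1 library.

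The difference at the nearest sites of all 8 lists turned to -1.67 where only sites within 10 kb counted, and to -0.549 without Young replicate 3, -0.169, -0.232, -0.134 and -0.653 without Old replicates 1 to 4 (range without 1 library -0.653 to 0.481). The difference in the flanks, whose alternatives were chosen after seeing the data, stayed above 0 in 20 of 21 alternatives (0.299 to 0.547 without 1 library). It was -0.0268 with the minimum fold and 0.305 with libraries as replicates, where it passed the threshold. With mice paired by number, as a replicate block, the differences were 0.112 and 0.305 (exact permutation p = 0.5 for both, the smallest 2 pairs allow). Deviations of same-numbered libraries were hardly correlated (r of 0.00131 to 0.0138 across sites). The difference between the first and second mouse of an age had an r of 0.0375 between Young and Old. Low correlations cannot show whether same-numbered samples were handled together. With 4 mice keeping the side of a threshold says nothing of stability. The planned shares near start sites were not run, since no annotation of the build was used.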
